A study of Mus musculus with 8 samples.

Results

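The genes described here are 10 enzymes that make NAD, remove its precursor nicotinamide or use NAD to take acyl groups off proteins: Nmrk2, Nmrk1, Nampt, Naprt, Nmnat1, Nmnat3, Nnmt, Nadk2, Sirt1 and Sirt3. They were chosen by symbol from 54091 gene rows, and all 10 were among the 13141 genes with a mean of at least 10 normalized counts that were tested across the table. The set was picked because the group difference of Nmrk2 is one of the larger ones in these data, so the group differences of these genes are given as a description and not as tests. RNA was sequenced from the white part of the quadriceps of 8 male mice aged 11 to 14 weeks and fasted overnight for 14 h. In 4 of them, labelled Loxp/Loxp and called floxed controls 1 to 4, Acot2 could be excised but no Cre is named. The other 4, labelled CKM Cre (Acot2 ko in muscle) and called knockouts 5 to 8, carry Cre under the muscle creatine kinase promoter, which is active in striated muscle. Mice with Cre alone were not analysed here, so Cre and loss of Acot2 cannot be told apart.

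NAD carries electrons between fuel oxidation and the respiratory chain, and it is also consumed as a substrate. Muscle rebuilds most of it by salvage. Nicotinamide is turned into nicotinamide mononucleotide by NAMPT, nicotinamide riboside is turned into the same product by the kinases NMRK1 and NMRK2, and NMNAT enzymes then add the adenylate group. Nicotinic acid enters through NAPRT. NNMT methylates nicotinamide so that it leaves the pool, NADK2 phosphorylates NAD in mitochondria, and the sirtuins split NAD when they deacylate proteins in the nucleus (SIRT1) or the mitochondrial matrix (SIRT3).

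Nmrk2 had the highest values in knockouts 8, 7 and 5, and its mean was 2.76 times the control mean. Sirt3 was 1.39 times and Nampt 1.16 times its control mean, while Sirt1 was 0.868 times. For the other 6 genes the knockout mean was 0.943 to 1.13 times the control mean. Of the 10 genes, 0 were called by limma at an adjusted p under 0.05, against 0% of all tested genes, and in 0 of 10 did the groups fail to overlap, against 2.75% of all tested genes (all knockouts higher in 1.13%, all lower in 1.62%). At an unadjusted p under 0.05 limma called 6.16% of all tested genes; no p is given for the 10. In 7 of the 10 the knockout mean was higher on the log2 scale, with a median difference of 0.17; over all tested genes 50.6% were higher and the median was 0.0031.

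The libraries held 28659632 to 40977866 reads on genes. Acot2 itself, which encodes a mitochondrial acyl-CoA thioesterase, was at 1530 to 3927 normalized counts in floxed controls and at 312 to 600 in knockouts, and the groups did not overlap (exact permutation test, two-sided, p = 0.0286; 4 mice against 4 cannot give a smaller one). Genes of fast glycolytic fibres marked the tissue as labelled: Myh4, the myosin of the fastest fibres, had 1397900 to 2917700 normalized counts. The share of counts on the titin gene Ttn was 14.9% in floxed control 4 and 13.9% in knockout 5. It was 11.8% to 12.8% in floxed controls 1 to 3 and 8.34% to 9.22% in knockouts 6 to 8. Without floxed control 4 and knockout 5 the groups therefore do not overlap in this share. Leaving both out cannot tell the share from the group. In bulk tissue, fewer cells of a type and less RNA per cell cannot be told apart. All levels are counts divided by the authors' size factor for the library, a difference is the knockout mean minus the control mean of log2(n + 1), and standard errors (SE) and 95% intervals are those of the limma fit with 4 mice a group.

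The riboside kinases are the members on which the results turn, and their upstream sequences are shown because Nmrk2 is known for its restriction to muscle while Nmrk1 is made in many tissues. Nmrk2 (gene ID 69564) lies on the minus strand of chromosome 10, from 81198170 to 81202051 in GRCm38, with 7 exons in its longest transcript. Nmrk1 (gene ID 225994) is a plus-strand gene of chromosome 19 (18631950 to 18652428) with 9 exons. The gene spans above follow GENCODE vM21. RefSeq's start sites for both genes lie inside those spans, so the bases just before them do too. The 250 bases before each RefSeq start site (GRCm38.p6) are chr10:81202038-81202287 on the minus strand and chr19:18631766-18632015 on the plus strand. They are written 5′ to 3′, with capitals for TATAAA (the TATA box) and CANNTG (the E-box, bound by myogenic and other helix-loop-helix factors), searched on both strands:
Nmrk2: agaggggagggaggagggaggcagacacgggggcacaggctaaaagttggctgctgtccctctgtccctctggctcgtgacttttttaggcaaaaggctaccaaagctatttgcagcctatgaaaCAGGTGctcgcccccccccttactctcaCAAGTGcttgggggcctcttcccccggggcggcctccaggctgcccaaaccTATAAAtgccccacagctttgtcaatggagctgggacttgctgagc
Nmrk1: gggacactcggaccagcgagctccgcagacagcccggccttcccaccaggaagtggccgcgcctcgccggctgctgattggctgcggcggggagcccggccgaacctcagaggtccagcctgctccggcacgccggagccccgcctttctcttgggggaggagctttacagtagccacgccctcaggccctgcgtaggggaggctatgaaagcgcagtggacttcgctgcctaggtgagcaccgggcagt

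The Nmrk2 window holds 1 TATAAA, whose first base is at -46 from the RefSeq start site, and 2 E-boxes, at -125 and -97. The Nmrk1 window holds neither motif. Windows were in the RefSeq table for 7 of the 10 genes (9 windows; Naprt, Nnmt and Nadk2 had none), and only that of Nmrk2 held TATAAA. Of all 32851 windows of this length, 12.4% held TATAAA and 66.2% held CANNTG. The G and C content was 58.8% for Nmrk2 and 69.2% for Nmrk1, against a median of 52.4%. The Sirt1 window held 2 copies of CACGTG, the E-box form bound by clock factors and MYC, which overlaps CANNTG and occurs in 6.02% of all windows. A match is a description of the letters, and no binding was measured.

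Nmrk2 had 28.9, 59.2, 71.9 and 47.1 normalized counts in the controls, numbered 1 to 4, and 132, 70.8, 149.9 and 220.3 in the knockouts, numbered 5 to 8. Knockouts 5, 7 and 8 lay above every control, and knockout 6 lay between the highest controls. The means were 51.8 ± 18.3 (SD, n = 4) in controls and 143 ± 61.5 (SD, n = 4) in knockouts. The difference was 1.41 (SE 0.354, 95% interval 0.63 to 2.19), number 19 in size among the 13141 tested genes. Leaving out any 1 mouse gave 1.17 to 1.71, and leaving out both floxed control 4 and knockout 5 gave 1.40. The reads behind these values numbered 27 to 182 per library, so that counting alone would give a coefficient of variation of 12.2%. The variation between mice of a group was 46.6%, and 93.9% of 2822 genes of similar level had a smaller SD within groups.

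A second gene covers part of Nmrk2 on the opposite strand. Of the 1854 exonic bases of Nmrk2, 270 (14.6%) are also exonic in Atcayos, an annotated antisense gene with 1022 to 1657 normalized counts. The strand setting of the authors' counting is not given in the sources used here, and without strand the reads of such a pair cannot be told apart. Atcayos had 1022, 1095, 1467 and 1468 counts in floxed controls and 1485, 1657, 1352 and 1179 in knockouts, a difference of 0.18 (SE 0.144). Floxed control 1 was lowest for both genes, while knockout 6 had the most Atcayos and the least Nmrk2 of the knockouts. The part of Atcayos reads in the Nmrk2 values was not tested.

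Markers of slow and oxidative fibres also differed in level between mice. Of the 9 markers, 8 had higher knockout means on the log2 scale, against 50.6% of all tested genes, with a median difference of 1.19. The most abundant markers, Myh2 and Atp2a2, differed by -0.009 and 0.13. Tnnc1 and Myoz2 differed by 0.17 and 0.60. Myh7, Tnnt1, Tnni1, Myl2 and Myl3, with mean counts of 41.7 to 83.1, differed by 1.19 to 2.89. The highest values were 303 for Myh7 in knockout 5, 188 for Tnnt1 and 293 for Tnni1 in knockout 6, and 441 for Myl2 in knockout 7. Knockout 8 had 13.3 for Myh7 and Tnnt1, 4.84 for Tnni1 and 2.42 for Myl2, within or below the range of the controls. The summed level of the 9 markers, mostly Myh2, the myosin of fast oxidative fibres, was 5838 to 20929 normalized counts in controls. In knockouts it was 5688 to 62987. Knockout 8, which had the most Nmrk2, had the lowest sum of all mice, and knockout 7 had the highest. None of these markers was at 0 in every library. The ventricular and slow light chain gene Myl3 had 17.2, 33.1, 1.04 and 3.55 counts in controls and 38.8, 107, 89.4 and 43.6 in knockouts. Myl3 was the 1 marker of the 9 whose groups did not overlap, against 2.75% of all tested genes, and 0 of the 9 were called. The part of these fibres in the Nmrk2 values was not tested.

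Nmrk1, the widely expressed riboside kinase, had 30.0, 35.7, 41.7 and 44.4 normalized counts in floxed controls and 40.6, 55.6, 37.2 and 33.9 in knockouts. The groups overlapped, with knockout 6 alone above every control. The difference was 0.13 (SE 0.243, 95% interval -0.41 to 0.66), and without knockout 6 it was -0.016. Its variation within groups, 20.4%, was little more than the 16.1% that counting gives at this depth. Per transcript length, Nmrk2 made up 57.7% ± 7.28 (SD, n = 4) of the summed riboside kinase level in controls and 75.6% ± 13.0 (SD, n = 4) in knockouts. That share ran from 50.2% in floxed control 1 to 87.2% in knockout 8, and in knockout 6, at 57.1%, it lay among the controls. These shares use the longest transcripts, with mean levels of 4.51 for Nmrk2 and 1.76 for Nmrk1. With the union of exons as length the means were 5.35 and 1.10, so the size of the share depends on the length used.

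**Figure D1:**
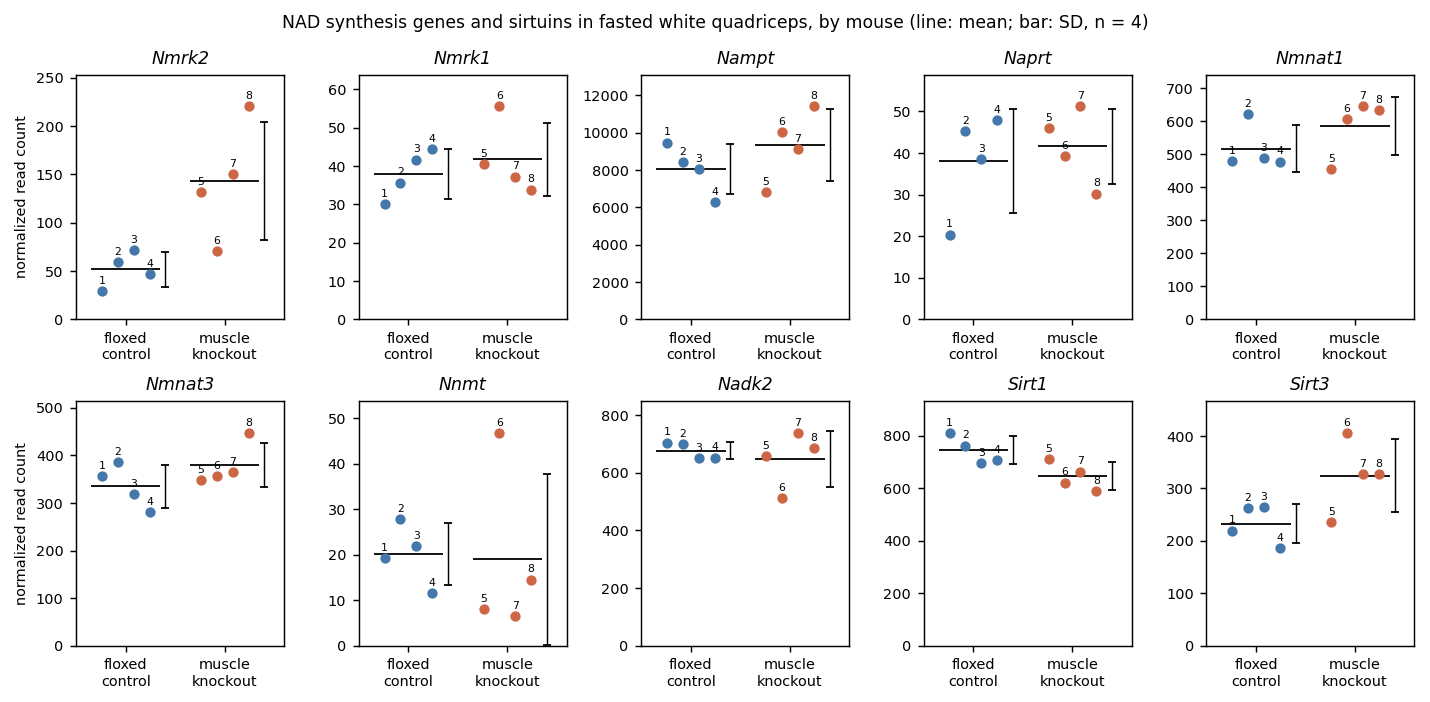
Normalized read counts (vertical axis of each panel, from 0) of the 10 genes in floxed controls 1 to 4 and knockouts 5 to 8; points are mice with their numbers, lines are group means and bars are SD (n = 4). Nmrk2 is high in knockouts 5, 7 and 8 and Nnmt in knockout 6, and the groups overlap in all 10 panels.

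Nampt encodes the enzyme that sets the pace of salvage from nicotinamide, and it was the most abundant of the 10. It lies on the plus strand of chromosome 12 (32819545 to 32853349). Its counts were 9471, 8409, 8052 and 6268 in floxed controls and 6809, 10025, 9139 and 11406 in knockouts. Knockouts 6 and 8 were above every control, and the lowest value of each group was in floxed control 4 and knockout 5, the libraries with the largest titin shares. The difference was 0.21 (SE 0.163, 95% interval -0.15 to 0.56). It was 0.23 without both of these mice, 0.091 without floxed control 4 alone and 0.35 without knockout 5 alone. Without both, titin share and group cannot be told apart.

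Naprt, the entry enzyme for nicotinic acid, was more than 50-fold lower per length than Nampt in every mouse (54.8-fold to 195-fold). It lies on the minus strand of chromosome 15 (75890956 to 75894481), where 277 of its 2344 exonic bases (11.8%) are shared with Eef1d on the same strand, so the split of reads there is uncertain. Its counts were 20.4, 45.3, 38.6 and 48.0 in floxed controls and 46.0, 39.2, 51.2 and 30.3 in knockouts. The groups overlapped throughout, and the lowest value was in floxed control 1. The difference was 0.17 (SE 0.307), and it was -0.095 without that mouse.

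The NMNAT enzymes, which complete NAD from its mononucleotide, were at similar levels per length of the longest transcript. With the union of exons as length the mean level was 18.5 for Nmnat1 and 7.27 for Nmnat3. Nmnat1, the nuclear enzyme, lies on the minus strand of chromosome 4 (149467572 to 149485202). It had 479, 623, 489 and 478 counts in floxed controls and 455, 608, 645 and 634 in knockouts. Knockout 5 was the lowest of all 8 mice, knockouts 7 and 8 were the highest, and floxed control 2 stood apart from the other controls. Its difference was 0.17 (SE 0.136, 95% interval -0.13 to 0.47). It was 0.29 without knockout 5, 0.27 without floxed control 2 and 0.26 without both floxed control 4 and knockout 5.

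Nmnat3, whose product works in mitochondria, lies on the plus strand of chromosome 9 (98287435 to 98420438). Its counts were 356, 386, 319 and 281 in floxed controls and 348, 356, 365 and 448 in knockouts. Floxed controls 3 and 4 were below every knockout and knockout 8 was above every control, with a difference of 0.18 (SE 0.13, 95% interval -0.11 to 0.47). It was 0.098 without floxed control 4, 0.097 without knockout 8 and 0.14 without both floxed control 4 and knockout 5. The nuclear enzyme's share of both levels per length was 55.7% ± 2.49 (SD, n = 4) in controls and 55.6% ± 3.58 (SD, n = 4) in knockouts. These shares use the longest transcripts and depend on that choice.

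Nadk2, the mitochondrial NAD kinase, lies on the plus strand of chromosome 15 (9071260 to 9110891). It had 705, 699.7, 651 and 653 counts in floxed controls and 659, 512, 739 and 686 in knockouts. Knockout 6 was the lowest mouse and knockout 7 the highest, with the controls close together between them. The difference was -0.073 (SE 0.116, 95% interval -0.33 to 0.18), and without knockout 6 it was 0.036. The cytosolic kinase gene Nadk, which is not one of the 10, differed by -0.016 (SE 0.0864). Nadk2 made up 47.7% ± 1.87 (SD, n = 4) of both kinases' level per length in controls and 46.7% ± 4.58 (SD, n = 4) in knockouts. The longest transcript of Nadk2, used for these shares, is not coding. With the longest coding transcripts the mean level per length was 14.8 for both kinases.

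Nnmt, known for high expression in liver and adipose tissue, had the lowest mean level per length of the 10. It lies on the minus strand of chromosome 9 (48591877 to 48605153), and 7 to 43 reads per library fell on it. Its normalized counts were 19.3, 27.8, 21.9 and 11.6 in floxed controls and 8.11, 46.8, 6.52 and 14.5 in knockouts. Knockout 6 had the most and knockouts 7 and 5 the least, so the knockouts spanned the controls on both sides. The difference was -0.43 (SE 0.56, 95% interval -1.67 to 0.80), and it was -0.99 without knockout 6 and -0.099 without knockout 7. Without floxed control 4 it was -0.66, without knockout 5 it was -0.19, and without both it was -0.42.

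Knockout 6 also had the highest summed levels of fibroblast, macrophage and neutrophil markers. The summed level of 10 fibroblast markers was 108290 normalized counts there, 67255 to 81789 in controls and 62409 to 73483 in the other knockouts. Much of that gap was Col3a1, a fibrillar collagen gene, with 27236 counts in knockout 6 and 5730 to 8456 elsewhere. Without it the sum was 81058 in knockout 6 and 55767 to 73333 elsewhere, and 6 of the 10 markers were highest in knockout 6; Col1a1, Dcn, Lum and Pi16 were not. That of 10 macrophage markers was 4761 in knockout 6, 1526 to 2939 in controls and 2656 to 3289 in the other knockouts. The 7 neutrophil markers, each with a mean under 10, summed to 103 there and to 48.4 at most elsewhere. The summed level of 10 adipocyte markers was 2698 in knockout 6, 2218 to 4898 in controls and 3035 to 5061 in the other knockouts, and Lep was at 0 in 5 of the 8 libraries, with 6.96 counts at most. Markers of muscle fibres were often highest in knockout 6 too, 7 of 10 for fast and 5 of 9 for slow and oxidative fibres. For endothelium 2 of 9 were highest there, and for adipocytes 0 of 10. None of the fibroblast or macrophage markers was at 0 in every library. The part of these cells in the Nnmt and Nmrk1 values of knockout 6 was not tested.

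**Figure D2:**
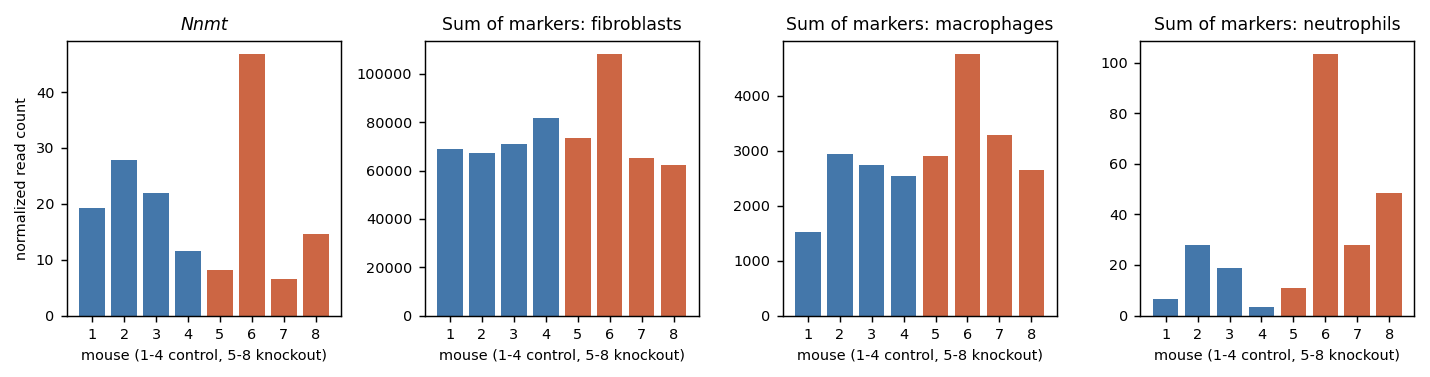
Normalized read counts of Nnmt and summed normalized counts of fibroblast, macrophage and neutrophil markers (vertical axes, from 0) in each mouse; blue bars are floxed controls 1 to 4 and orange bars are knockouts 5 to 8. Knockout 6 has the tallest bar in all 4 panels, 46.8 for Nnmt and 108290 for the fibroblast markers.

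Sirt3, the main deacetylase of the mitochondrial matrix, lies on the minus strand of chromosome 7 (140863666 to 140882309). It had 219.8, 262, 264 and 186 normalized counts in floxed controls and 236, 406, 328 and 327 in knockouts. Knockouts 6, 7 and 8 were above every control, and the lowest value of each group was in floxed control 4 and knockout 5. The difference was 0.46 (SE 0.176, 95% interval 0.077 to 0.85). It was 0.61 without knockout 5, 0.36 without floxed control 4 and 0.50 without both. Without both, titin share and group cannot be told apart. Of its 5973 exonic bases, 418 are shared with Ric8a and 342 with Psmd13 on the opposite strand. Psmd13 differed by 0.032 (SE 0.0879), and Ric8a was not compared. As with Nmrk2, the strand setting of counting is not given. The part of Ric8a and Psmd13 reads in the Sirt3 values was not tested.

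Sirt1, the nuclear deacetylase that acts on transcription factors and coactivators, lies on the minus strand of chromosome 10 (63319005 to 63381704). It had 810, 761.5, 694 and 707 counts in floxed controls and 709, 621, 663 and 588 in knockouts. Knockouts 6, 7 and 8 were below every control and floxed controls 1 and 2 were above every knockout. The difference was -0.20 (SE 0.0941, 95% interval -0.41 to 0.0025), with -0.16 to -0.25 on leaving out any 1 mouse. Its variation within groups was the smallest of the 10, at 7.62%. Sirt3 made up 30.1% ± 3.80 (SD, n = 4) of the summed Sirt1 and Sirt3 level per length in controls and 40.8% ± 6.78 (SD, n = 4) in knockouts. These shares use the longest transcripts, and that of Sirt3 (3206 bases) is not coding. With the longest coding transcripts (1606 bases for Sirt3) the mean level per length was 14.3 for Sirt3 and 13.0 for Sirt1, so their order depends on the transcript used.

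**Figure D3:**
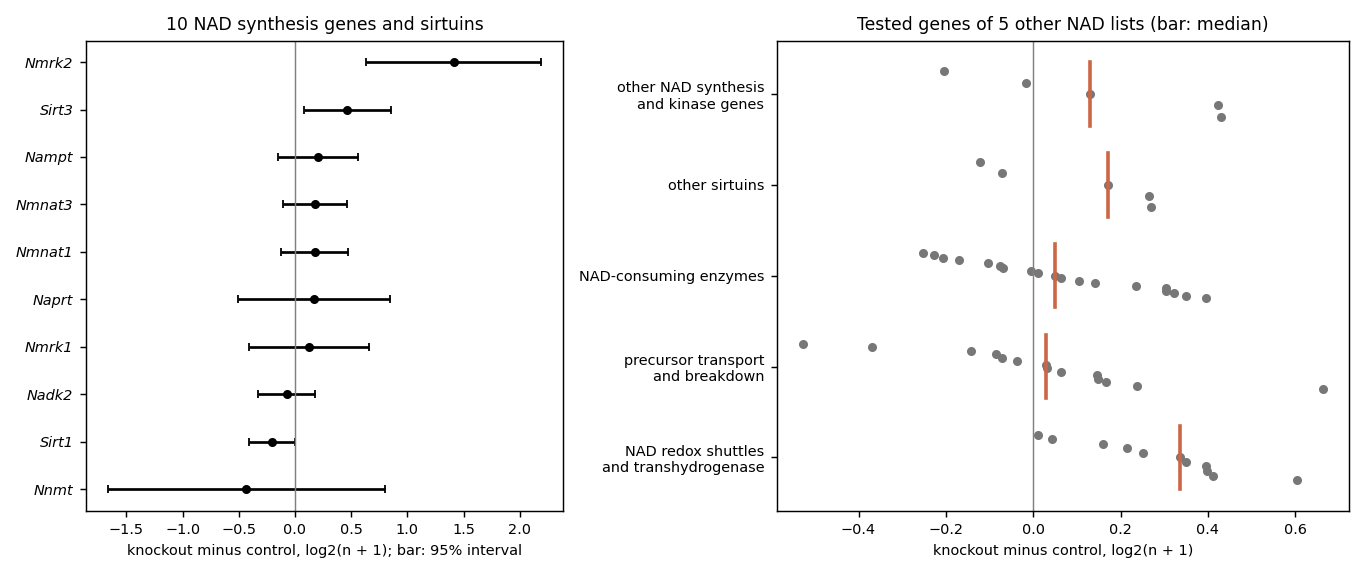
Left, difference of the group means of log2(n + 1), knockouts less controls (horizontal axis), for the 10 genes, with 95% intervals of the limma fit; right, the same difference for each tested gene of 5 other NAD lists, with the list median as a bar. Nmrk2 is farthest from 0 at 1.41, and the 11 tested genes of the redox shuttle list all lie above 0.

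Levels of different genes were compared per length of the longest annotated transcript, as TPM (counts per base of transcript, scaled to a common total per library). Nampt was at 164 TPM (123 to 204 over the 8 mice), 9.24 times the next gene, Nmnat1, at 17.8. Nmnat3 (14.1), Nadk2 (13.8) and Sirt1 (13.5) followed and could not be ranked among themselves: Nmnat3 was above Nadk2 in 4 of 8 mice, and Nadk2 above Sirt1 in 3. Sirt3 was at 7.41 TPM and Nmrk2 at 4.51. The Nmrk2 level ran from 1.35 to 9.64 and was below that of Sirt3 in 7 of 8 mice. Naprt (1.81), Nmrk1 (1.76) and Nnmt (1.57) were lowest, each above the next in 4 and 5 of 8 mice. The longest transcripts of Sirt3 and Nadk2 are not coding ones, and with the longest coding transcript of each Sirt3 (1606 bases) was at 14.3 TPM and Nadk2 (3731 bases) at 14.8.

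**Figure D4:**
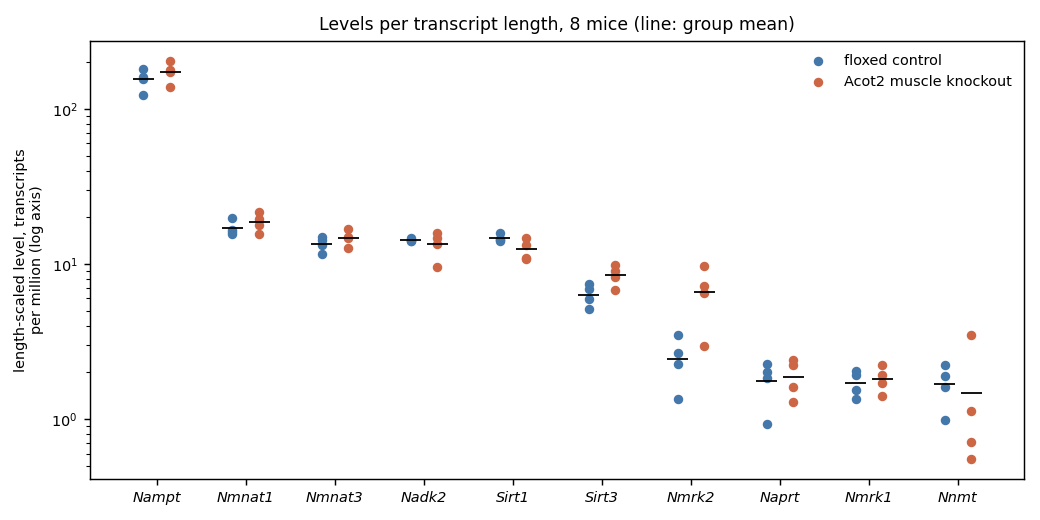
Level per transcript length in TPM (vertical log axis) for the 10 genes in order of their mean; points are mice, blue for floxed controls and orange for knockouts, and lines are group means. Nampt lies at 123 to 204, and Naprt, Nmrk1 and Nnmt lie together near the bottom.

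Most genes of the route that builds NAD from tryptophan were near the limit of detection. Of 15 further genes of NAD synthesis and phosphorylation, 5 were tested. Tdo2, Ido1, Kynu, Haao and Acmsd, enzymes of that route, each had a mean under 1 normalized count, and Ido2 and Aadat had 0 reads in every library, which allows up to 3 reads per library from counting error alone. Qprt, where that route enters NAD synthesis, had 36 reads over all 8 libraries, and Nmnat2, the NMNAT enzyme best known from neurons, had 51.

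Of the 5 tested genes of this list 3 had higher knockout means, and 0 were called. Ccbl1 (now Kyat1), a kynurenine aminotransferase, had 256, 211, 297 and 219 counts in floxed controls and 299, 402, 307 and 309 in knockouts. It was the 1 gene without overlap among the 54 tested in all 5 lists, against 2.75% of all tested genes, but knockout 5 exceeded floxed control 3 by about 2 counts, and its limma adjusted p was 0.746. Nadsyn1, which makes NAD from its nicotinic acid form, differed by 0.43 (SE 0.246, limma adjusted p = 0.748).

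Among the other sirtuins, Sirt2, a mostly cytosolic deacetylase, was the most abundant of all 7 at 60.3 TPM, above Sirt1 in every mouse (53.5 to 66.5 against 10.8 to 15.9). Of the 5, 3 had higher knockout means, 0 were called and the median was 0.17. The mitochondrial Sirt4 differed by 0.27 (SE 0.187, limma adjusted p = 0.765) and the nucleolar Sirt7 by 0.27 (SE 0.242, limma adjusted p = 0.824), or by 0.51 without floxed control 4. The third mitochondrial sirtuin gene, Sirt5, was at 4.80 TPM with a difference of 0.17 (SE 0.198); Sirt2 and Sirt5 were described after their values were seen.

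The list of NAD-consuming enzymes was led by Art1 (294 TPM), whose product attaches ADP-ribose to cell surface proteins, and its family member Art3 (241 TPM). Both genes were chosen after their levels were seen. They differed by -0.10 (SE 0.0757) and 0.0098 (SE 0.109). Of 19 tested genes of the list 11 had higher knockout means, 0 were called and the median was 0.051. Parp8 differed by 0.30 (SE 0.121, limma adjusted p = 0.746), with 239 ± 27.2 counts (SD, n = 4) in controls and 294 ± 25.1 (SD, n = 4) in knockouts. Tnks, a tankyrase gene, differed by -0.25 (SE 0.126, limma adjusted p = 0.746). Cd38, the main NAD glycohydrolase, which macrophages also express, differed by 0.24 (SE 0.181) and was also chosen after its value was seen. All 9 tested macrophage markers had higher knockout means, against 50.6% of all tested genes, with a median of 0.53 and 0 called. The part of macrophages in the values of this list was not tested.

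Precursor transport and breakdown genes showed no common direction, with 8 of 14 tested genes higher, 0 called and a median of 0.030. Slc25a51, the mitochondrial NAD carrier, was at 42.3 TPM and differed by 0.029 (SE 0.0878); it was chosen after its value was seen. Pnp, which splits nicotinamide riboside, had 48.2, 33.9, 36.5 and 61.3 counts in floxed controls and 55.0, 102, 54.0 and 78.7 in knockouts. Its highest value was again in knockout 6, and its difference was 0.66 (SE 0.274, limma adjusted p = 0.746). The neighbouring copy Pnp2, with a mean of 3.71 counts, can share reads with it. Enpp3, an ectoenzyme that cleaves nucleotides, differed by -0.37 (SE 0.257, limma adjusted p = 0.766).

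In the genes that move electrons on and off NAD between cytosol and mitochondria, all 11 tested members had higher knockout means on the log2 scale. Over all tested genes 50.6% were higher. The median difference of the list was 0.34, and 0 were called. On leaving out any 1 mouse, 9 to 11 were higher. The differences of Gpd2 and Gpd1 were small, at 0.011 and 0.043. Slc25a11, the malate and oxoglutarate carrier, had 3684, 4219, 4015 and 2895 counts in floxed controls and 3429, 5265, 5178 and 5090 in knockouts. Knockouts 6, 7 and 8 were above every control, and floxed control 4 and knockout 5 were lowest in their groups. The difference was 0.35 (SE 0.155, limma adjusted p = 0.746). It was 0.24 without floxed control 4, 0.50 without knockout 5 and 0.38 without both. Got2, the mitochondrial aspartate aminotransferase, was also lowest in these mice, with 4559 counts in floxed control 4 and 5983 in knockout 5, and differed by 0.34 (SE 0.163, limma adjusted p = 0.746). It was 0.19 without floxed control 4, 0.47 without knockout 5 and 0.32 without both. The list sums were 104100 to 127090 normalized counts in controls and 110220 in knockout 5, against 134380 to 166810 in knockouts 6 to 8. Ldha was the largest part of these sums. It had 45126 to 54803 counts in controls and 43798, 77724, 47346 and 71437 in knockouts 5 to 8.

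Covariation between mice, which does not use the group difference, was examined after subtracting each group's mean. Over the 45 pairs of the 10 genes, 0 passed an adjusted p of 0.05 in an exact permutation test within groups, 1 had an unadjusted p under 0.05 by Pearson's r and 2 by Spearman's rho, and the smallest adjusted p was 0.686 for r and 0.391 for rho. The strongest pair was Nmrk1 with Nadk2, with r = -0.85 (exact permutation p = 0.0174) and rho = -0.88 (exact permutation p = 0.00868) over 8 mice. Without the 2 mice farthest from the median of Nmrk1, floxed control 4 and knockout 6, r was -0.59.

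Nampt and Nmnat3 had r = 0.77 (exact permutation p = 0.0503) and rho = 0.76 (exact permutation p = 0.066) over the 8 mice, with r = 0.64 without floxed control 4 and knockout 5. Nampt and Sirt3 had r = 0.72 (exact permutation p = 0.0938) and rho = 0.40 (exact permutation p = 0.434), but without the same mice r was -0.41, so that relation rested on the libraries with the largest titin shares. Nnmt and Sirt3 had r = 0.76 (exact permutation p = 0.0764) and rho = 0.74 (exact permutation p = 0.0556). Their r was 0.96 without knockouts 6 and 7. Nampt and Naprt had r = -0.68 (exact permutation p = 0.0816) and rho = -0.79 (exact permutation p = 0.0382). Nmrk2 had its highest r among the members with Nadk2, at 0.54, and r = -0.32 with its paralogue Nmrk1.

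**Figure D5:**
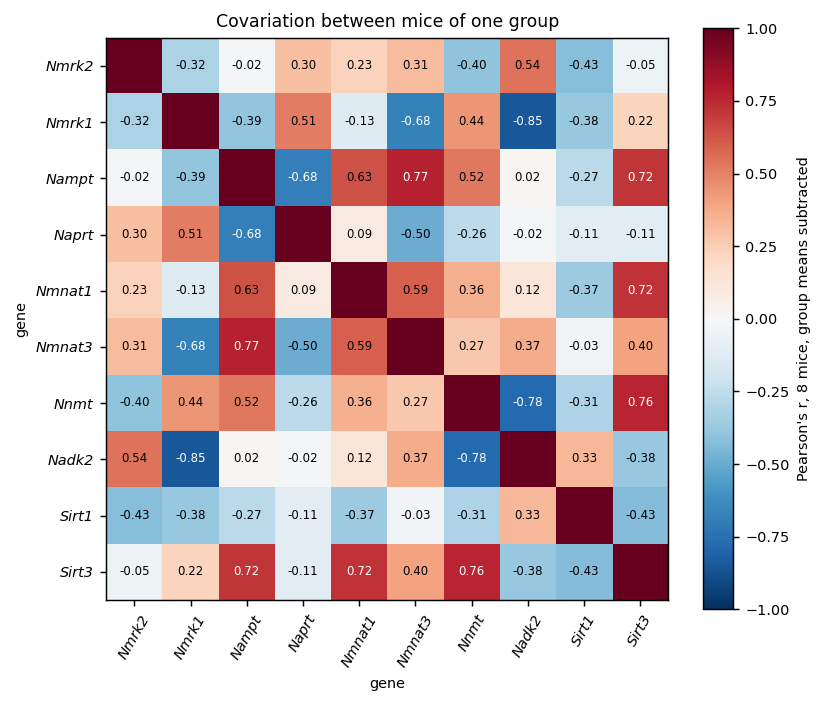
Pearson's r (colour and printed value, from -1 to 1) for each pair of the 10 genes over 8 mice after subtraction of the group means. Nampt, Nmnat1, Nmnat3 and Sirt3 form a block of positive values, and Nnmt is positive with each of them (0.27 to 0.76). Without floxed control 4 and knockout 5, r of Nampt was -0.17 with Nmnat1, -0.41 with Sirt3 and 0.64 with Nmnat3. Nmrk1 with Nadk2 is lowest at -0.85, and none of the 45 pairs passed after adjustment.

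Among the 5 genes whose values followed Nmrk2 most closely within groups were Utp15 (r = 0.95), a ribosome assembly factor, Rragb (r = 0.95), a GTPase that relays amino acid supply, and Otog (r = 0.95), a matrix protein of the inner ear. These likenesses are a description over 8 mice, picked as the highest of 13137 genes, of which 25 had r over 0.9. Utp15 had 303, 351, 358 and 339.5 normalized counts in floxed controls and 349, 319, 339.8 and 372 in knockouts. Like Nmrk2 it was lowest in floxed control 1 and knockout 6 and highest in floxed control 3 and knockout 8, but its group means differed by 0.030 (SE 0.102). The group difference was 0.17 (SE 0.415) for Rragb and 0.051 (SE 0.239) for Otog. Without subtraction of the group means the 5 closest genes were Cyfip2, Nos3, Tead2, Ube2j2 and Azin1 (r from 0.92 to 0.97), and 0 of these are among the first 5.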

How the data were processed

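RNA-seq libraries from 8 mice were analysed; the labels name separate mice and no batch. Per the labels' protocols, a Norgen kit and TruSeq Stranded library preparation were used, while how counting treated strand is not stated there. The build (GRCm38) and the tools STAR, HTSeq, DESeq2, FastQC and cutadapt are named in the submitters' processing notes, with no version. The values deposited by the authors are log2(n + 1), where n is the library's reads on the gene over its size factor; from the values, n is a whole multiple of 1 step per library (within 0.1 read for 100% of values up to 200 reads). Columns were matched by mouse number. Of 54091 rows, 28495 were 0 throughout.

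Genes with a mean n of at least 10 were tested with limma 3.58.1 (R 4.3.3; trended eBayes, Benjamini-Hochberg, adjusted p under 0.05). The fit was tested on simulated data. TPM used GENCODE vM21 lengths, with 52200 rows matched by symbol (94.1% of counts). Promoters are RefSeq's, GRCm38.p6. Members and lists were chosen with earlier results of these data known. Named genes are the members, Acot2, for each list its 2 genes with the smallest p, and the 5 most like Nmrk2, of which 2 are not reported here; others serve as markers or overlapping neighbours, or were chosen after their values were seen. The 2 aminotransferase genes Kyat1 and Kyat3 were matched under older symbols.

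Alternatives covered pseudocount, filter, scaling, sample weights, transcript length and leaving out mice; voom on recovered reads and the coding transcript length were added after seeing the data. Count-based tools planned as alternatives were not run; voom stands in their place.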

Additional observations from a re-analysis of the deposited data

Results flagged for a closer look

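In 44 groups of 4 mice examined (the 10 genes, Acot2, the titin share and the marker sums), 3 had a mouse far from the others; chance gives about 1 in 20. Nmnat1 had a log2 value of 9.286 in floxed control 2, against 8.90 to 8.94 in the other controls. The share of counts on Ttn was 13.85% in knockout 5, against 8.34% to 9.22% in the other knockouts. The summed level of slow and oxidative fibre markers was 62990 normalized counts in knockout 7, rounded, against 5688 to 9451 in the other knockouts.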

How the results depend on the processing

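Across 16 alternatives Nmrk2 differed by 1.17 to 1.71, Sirt3 by 0.35 to 0.61 and Sirt1 by -0.27 to -0.16. Leaving out each mouse in turn changed the sign for Naprt (-0.095 to 0.31), Nmrk1 (-0.016 to 0.22) and Nadk2 (-0.14 to 0.036) and gave a median of the 10 genes from 0.081 to 0.24, with 6 or 7 of the 10 higher but not always the same ones. Acot2 differed by -2.49 to -2.03 on leaving out a mouse, with an exact permutation p of 0.0571, the smallest that 3 against 4 allow. Without the filter 1 gene, Acot2, was called by limma, against 0 in every other setting run, and 11 genes of the list of further NAD synthesis genes were higher, against 3, since rows near 0 then enter. The genes at an unadjusted p under 0.05 numbered 810, and 756 with voom, 1362 without the filter, 1467 with sample weights, 2200 without knockout 5, 367 without floxed control 4, 518, 422 and 456 without floxed control 1, knockout 6 and knockout 8, and 1509 without both floxed control 4 and knockout 5; 324 of the 810 were higher, and 66.4% (491 of 739) when libraries were scaled to the same total. In the order of levels, 4 genes kept their place with the union of exons as length and 6 with the longest coding transcript. Of the 5 genes most like Nmrk2, 1 remained by Spearman's rho. No paired analysis was made. The sample titles number the mice 1 to 8, while the column names number each group 1 to 4. Nothing in the labels says that mice with the same number belong together. At most 55 reads per library limit Naprt, Nmrk1 and Nnmt.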

Other observations

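Nnt, the mitochondrial transhydrogenase that moves electrons from NADH to NADP, was low. It had a mean of 13.3 normalized counts over the 8 mice, with 106 reads in all, while the other 10 tested genes of the redox shuttle list had means of 959 to 54581. Its group difference was 0.60 (SE 0.566). It was chosen after its values were seen. The gene is known to be disrupted in one widely used C57BL substrain; the labels give no strain, and no cause was tested.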
